A study of Mus musculus with 14 samples.

Results

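The 1882 transposable element (TE) copies described here were switched on in meiosis of wild-type (WT) mice, among 3725827 annotated copies in the deposited tables. A copy is one insertion of a TE at one genomic position. Each had a mean of at least 10 transcripts-per-million units (TPM) over the 4 WT spermatocyte (Spc) libraries and a mean under 0.5 TPM over the 3 WT spermatogonia (Spg) libraries, with a copy missing from a table taken as 0. TPM here is scaled over the reads of TE copies alone, so it gives a copy's share of TE reads per base and not its share of the transcriptome. Another 12377 copies also reached 10 TPM in WT Spc but were already at 0.5 TPM or more in WT Spg. Members were thus chosen by their measured WT Spc and WT Spg levels, so those levels and the contrast between them are given as a description.

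The study sequenced RNA of sorted male germ cells from mice lacking DNMT3C, a rodent DNA methyltransferase that methylates promoters of young TEs in fetal male germ cells, and from their WT littermates. Knockout (KO) mice carried the Dnmt3C KO allele on both chromosomes in every cell. Spg were taken at postnatal day 14 as live cells that stained for EpCAM and not for beta-2-microglobulin, and Spc from mice older than 20 days by Hoechst staining and exclusion of propidium iodide. There were 4 Spc and 3 Spg libraries of each genotype, all made with poly(A) selection and a stranded kit. In the study's account KO germ cells stop in the pachytene stage, so genotype and the meiotic stages present in the Spc sorts cannot be told apart.

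Most TE copies in a mammalian genome are old, truncated pieces that lie in introns and between genes. Short interspersed elements (SINEs: B1, B2, B4, ID and MIR) are copied by the machinery of long interspersed elements (LINEs such as L1 and L2), while LTR elements (the ERVK, ERV1, ERVL and ERVL-MaLR families) carry promoters in their long terminal repeats. Such an LTR can start a transcript of its own, and any copy can also be read as part of an intron, an exon or the transcript running past the end of a gene. Meiosis brings on a wide set of testis genes and noncoding transcripts, and transcription factors such as MYBL1 and RFX2 act in it. The X chromosome is silenced in pachytene.

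Total counts ran from 40555726 to 53323651 per library, of which TEs took 1.77% to 2.93% in WT Spc and 5.74% to 8.67% in KO Spc. Marker genes set the libraries apart in more than genotype. Summed counts-per-million values (CPM) of 9 pachytene markers were 8262 to 16117 in WT Spc and 185 to 459 in KO Spc, and those of the spermatid markers were 98.9 to 1510 against 3.51 to 11.2. Markers of several somatic cell types moved the other way: 5 of 5 peritubular genes were higher in KO Spc, with sums of 173 to 2095 CPM against 19.0 to 25.2, and 6 of 6 Leydig and 5 of 5 macrophage genes were higher as well. Of 6 Sertoli genes 1 was higher, and their sums overlapped, at 66.3 to 282 CPM in KO Spc and 30.4 to 98.5 in WT Spc. Sums of 8 early meiotic markers overlapped as well, at 1439 to 2672 CPM in KO Spc and 1744 to 2663 in WT Spc. The spermatid gene Prm1 had no CPM values and is not in the spermatid sums. None of the other stage and somatic marker genes was at 0 in every KO Spc library or in every WT Spc library. Spg_WT replicate 2 stood apart from the other Spg libraries, with 1607 CPM of pachytene markers against 462 and 230 in replicates 1 and 3. Replicates 1 and 4 of Spc were much more alike than any other pair in both genotypes, with a chi-square per gene of 12.7 in KO and 16.7 in WT against 146 to 323 for the other pairs, but they differed by more than sampling noise and were kept as separate samples. The labels do not say whether they came from separate sorts or animals, and if they did not, the 4 Spc libraries stand for fewer samples and p-values are too small. The study speaks of 3 biological replicates in its figures of Spg and Spc expression, while 4 Spc libraries of each genotype are labelled. Fewer cells of a type and less RNA per cell cannot be told apart in these bulk samples.

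Where the annotated start of a RefSeq gene lay inside a copy on the same strand, the sequence shows which bases of the promoter window belong to the copy. Whether these starts were used in the cells was not tested. Of 32851 RefSeq promoter windows (GRCm38.p6, 250 bases before to 50 after the start, 300 bases each), 49 overlapped 46 of the 1882 copies, and 17 started inside a same-strand copy. All but 1 of these 17 starts belonged to LTR or LINE copies, the other being a B3 SINE. Windows of 4 such genes are printed from 5′ to 3′ on the gene's strand because they show an L1 piece or a MaLR LTR holding the start. Capitals mark the bases that belong to the copy. The first pair comes from L1_Mus1 pieces on chromosome 5 (chr5:11176885-11177184 and chr5:11410279-11410578, minus strand), followed by ORR1D2 (chr13:112182194-112182493, plus strand) and ORR1B1 (chr4:34485542-34485841, minus strand).
L1_Mus1_dup6957 at Gm32554: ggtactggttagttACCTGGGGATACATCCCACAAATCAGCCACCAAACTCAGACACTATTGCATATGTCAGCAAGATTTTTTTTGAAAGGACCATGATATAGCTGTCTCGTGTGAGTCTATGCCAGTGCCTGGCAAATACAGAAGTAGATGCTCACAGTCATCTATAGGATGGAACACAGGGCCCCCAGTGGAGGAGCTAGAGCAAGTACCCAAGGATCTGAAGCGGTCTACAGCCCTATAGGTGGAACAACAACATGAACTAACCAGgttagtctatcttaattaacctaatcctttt
L1_Mus1_dup6963 at 1700108N06Rik: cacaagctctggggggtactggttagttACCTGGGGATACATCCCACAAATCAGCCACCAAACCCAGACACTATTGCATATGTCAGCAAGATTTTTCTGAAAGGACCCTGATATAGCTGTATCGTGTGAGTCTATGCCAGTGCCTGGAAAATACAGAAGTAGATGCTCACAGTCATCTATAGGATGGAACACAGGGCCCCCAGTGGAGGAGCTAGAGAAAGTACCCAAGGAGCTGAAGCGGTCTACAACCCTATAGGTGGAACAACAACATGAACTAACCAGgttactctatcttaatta
ORR1D2_dup11739 at Gm41063: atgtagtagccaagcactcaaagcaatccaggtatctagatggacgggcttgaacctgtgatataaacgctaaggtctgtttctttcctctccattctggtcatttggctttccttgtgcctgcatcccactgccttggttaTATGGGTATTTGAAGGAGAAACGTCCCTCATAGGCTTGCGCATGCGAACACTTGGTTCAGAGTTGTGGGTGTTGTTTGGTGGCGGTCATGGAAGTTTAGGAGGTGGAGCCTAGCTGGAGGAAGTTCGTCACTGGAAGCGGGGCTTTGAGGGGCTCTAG
ORR1B1_dup3086 at Gm33434: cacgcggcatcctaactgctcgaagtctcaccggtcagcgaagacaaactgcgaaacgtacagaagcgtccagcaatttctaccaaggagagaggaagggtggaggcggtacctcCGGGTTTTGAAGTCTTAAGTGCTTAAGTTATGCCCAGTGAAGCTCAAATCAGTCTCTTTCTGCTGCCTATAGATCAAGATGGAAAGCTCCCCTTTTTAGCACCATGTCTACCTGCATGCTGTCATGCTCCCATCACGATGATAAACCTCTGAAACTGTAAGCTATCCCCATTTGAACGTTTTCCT

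The L1 windows were related. That of 1700108N06Rik matched the window of Gm43131 (chr5:11911910-11912209), which starts in L1_Mus1_dup6976, at 297 of 300 positions, and it matched that of Gm32554 at 277 of 286 when a gap of 1 base was allowed. Reads of such near-identical copies could be placed at either of them, so the level of each of the 3 is uncertain where another is transcribed. The 3 L1_Mus1 copies averaged 55.8, 13.5 and 13.5 TPM in WT Spc and had no KO Spc read. Gene counts gave 7.07 ± 3.96 CPM (SD, n = 4) for the long noncoding RNA Gm32554 in WT Spc and 0.0244 ± 0.0191 in KO Spc, a log2 difference of -8.03 ± 0.79 (SE, edgeR quasi-likelihood test, Benjamini-Hochberg adjusted p = 2.4e-05). These counts come from the libraries that chose the copy, so the difference is partly built in. Gene CPM throughout are on edgeR's normalised scale, while reads of members are scaled to total counts. Of the genes whose windows are printed here and below, only Gm32554 and 1700108N06Rik were found in the gene counts.

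Another set of windows lay wholly inside ERVK-type LTRs of the RMER17 and RMER13 subfamilies and is shown for a motif they shared. Capitals mark an X-box, a type of site that RFX factors bind, searched here as GTTNCC and GCAAC with any 2 bases between them. The motif was searched on both strands and was picked after the windows had been read. The windows are chr10:50520706-50521005, chr6:114165344-114165643 and chr3:74126385-74126684, all on the minus strand.
RMER17A_dup1106 at LOC115487390: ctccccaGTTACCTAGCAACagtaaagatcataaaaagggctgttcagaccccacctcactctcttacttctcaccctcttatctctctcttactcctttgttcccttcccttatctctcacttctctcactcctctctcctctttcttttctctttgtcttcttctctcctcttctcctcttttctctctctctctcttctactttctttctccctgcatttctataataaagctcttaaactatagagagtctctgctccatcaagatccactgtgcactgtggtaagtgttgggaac
RMER13B_dup768 at Gm52916: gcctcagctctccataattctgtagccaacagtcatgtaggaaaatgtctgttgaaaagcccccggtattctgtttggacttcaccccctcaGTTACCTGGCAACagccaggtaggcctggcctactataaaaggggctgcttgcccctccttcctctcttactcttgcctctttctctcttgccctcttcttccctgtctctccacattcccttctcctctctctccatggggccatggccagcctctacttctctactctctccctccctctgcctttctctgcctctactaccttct
RMER17B_dup563 at Gm36069: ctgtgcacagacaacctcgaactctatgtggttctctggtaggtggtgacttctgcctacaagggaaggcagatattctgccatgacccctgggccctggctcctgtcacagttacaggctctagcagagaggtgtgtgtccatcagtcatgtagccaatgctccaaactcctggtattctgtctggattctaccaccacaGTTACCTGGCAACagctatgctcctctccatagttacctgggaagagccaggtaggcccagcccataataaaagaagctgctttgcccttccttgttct

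The motif began at base -243, -158 and -49 relative to the gene start in the 3 windows, and read GTTACCTAGCAAC in the first and GTTACCTGGCAAC in the others. It was present in 150 of all 32851 windows (0.457%), in 3 of the 49 windows that overlapped a member and in 3 of the 17 that started inside one. CAGTTA, the letters of a MYB site, was present in 10.1% of all windows, in 13 of 49 and in 5 of 17, and in the 3 windows above its letters overlap the X-box letters. The cyclic AMP response element TGACGTCA was found in 1.79% of all windows, in 1 of 49 and in 0 of 17, and TATAAA in 13.6%, 10 of 49 and 5 of 17. A match of letters does not show binding, and too few windows were involved for a comparison. RMER17A_dup1106 averaged 23 TPM, RMER13B_dup768 17.6 TPM and RMER17B_dup563 10.2 TPM in WT Spc. In KO Spc the RMER13B copy averaged 0.102 TPM and the RMER17 pair had no read. RMER17C, another subfamily of this group, had 6 members with a median of 16 TPM in WT Spc and 0 in KO Spc.

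SINEs made up 997 of the 1882 copies (53.0%), LTR elements 453 (24.1%), LINEs 292 (15.5%) and DNA transposons 98 (5.21%). LTR elements and LINEs held larger shares than among the 12377 other copies at 10 TPM or more in WT Spc, where SINEs were 66.1%, LTR elements 17.1% and LINEs 10.7%. They held larger shares, too, than among all 177473 copies at 0.5 TPM or more, with 18% for LTR elements and 12.4% for LINEs. These shares are descriptions, since the rule set the members apart.

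B1 elements of the Alu family were the most frequent, with 391 copies, followed by B4 with 262, L1 with 221, ERVL-MaLR with 206, B2 with 173, ERVK with 136 and MIR with 107. B2 was 9.19% of the members and 18.2% of all copies at 0.5 TPM or more. The members came from 352 of 1146 subfamilies. Among them were 8 L1Md and 5 IAP copies. The L1Md copies were 1 each of L1Md_T, L1Md_A and L1Md_F, 3 of L1Md_F2 and 2 of L1Md_F3. Shares of these subfamilies among other copies were not computed.

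In some subfamilies a few members carried most of the signal. They held more than 50% of the WT Spc TPM of 21 subfamilies and more than 25% of 55. Of reads, which do not give short pieces more weight, they held more than 50% in 17 and more than 25% in 40. A single copy, MER4B-int_dup51 at 51.3 TPM, made 98.2% of the MER4B-int TPM and 97.6% of its reads, and MER92C had shares of 98.1% and 98.4% and RLTR41B of 70.3% and 55.6%. In ORR1D1-int members made 56.3% of the TPM and 18.5% of the reads, and in RLTR24 27.9% and 4.86%. Over all TEs the members held 4.26% of the WT Spc TPM and 0.164% of the KO Spc TPM.

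**Figure D1:**
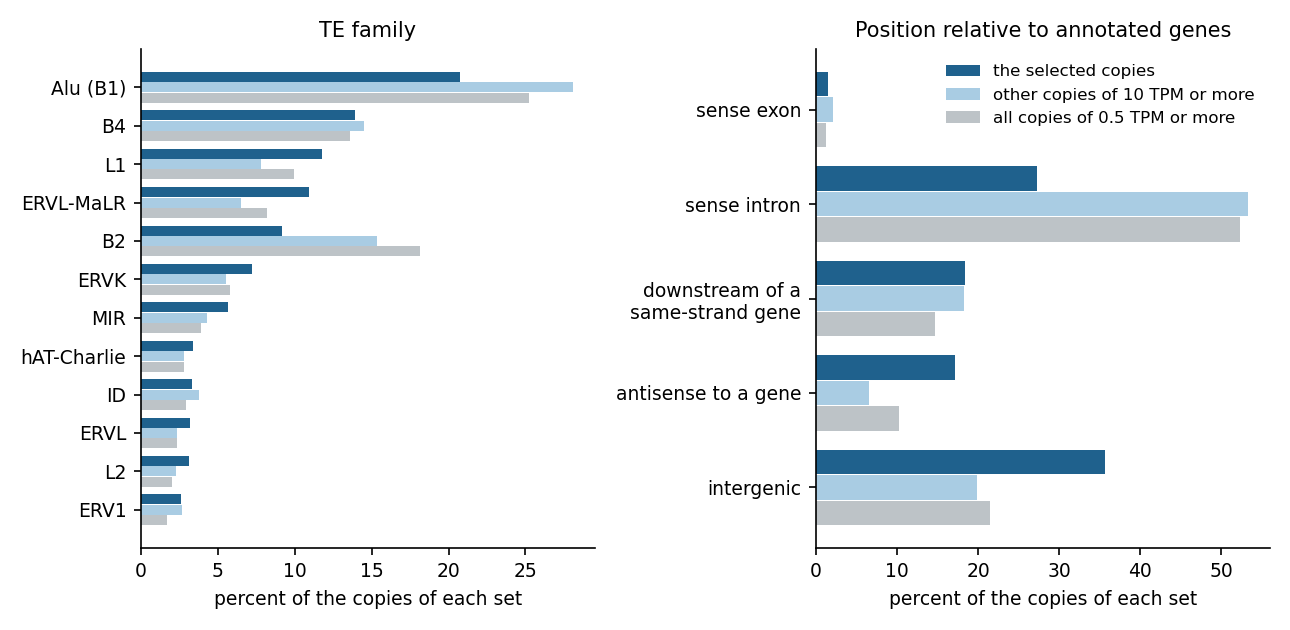
Share in percent of the 1882 members, of the 12377 other copies at 10 TPM or more in WT Spc and of all 177473 copies at 0.5 TPM or more, by TE family (left) and by position relative to genes (right). L1, ERVL-MaLR and ERVK, and intergenic and antisense positions, take larger shares of the members, and B1, B2 and sense introns smaller ones.

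Relative to gene models (GENCODE M21, GRCm38), 670 members were intergenic (35.6%), against 19.8% of the other copies at 10 TPM or more. Sense introns held 513 members (27.3%, against 53.3%) and sense exons 29 (1.54%). A further 324 members lay antisense to a gene and outside any gene on their own strand (17.2%, against 6.51%). The last 346 lay within 10000 bases downstream of the end of a same-strand gene (18.4%, against 18.2%), at a median distance of 3119 bases from 275 genes, 80 of them within 1000 bases. Members were thus less often in introns and more often between genes or antisense to them than other well-expressed copies.

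The X chromosome held a single member, a piece of 12 bases in the intron of Maoa that had 5 WT Spc reads, or 0.0531% of the set. The X chromosome held 0.428% of the other copies at 10 TPM or more and 1.09% of those at 0.5 TPM or more.

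Members on the same strand within 10000 bases of each other formed 1413 loci. Of these, 1116 held 1 member, 203 held 2, 94 held at least 3 and 19 held at least 5, so 766 members shared a locus. Members of one locus can be pieces of one transcript and are not independent measurements. In 58 loci another locus lay close by on the opposite strand.

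The largest locus held 14 members over chr15:79932983-79967367 on the plus strand, antisense to Cbx7, which codes for a Polycomb protein. It mixed pieces of B1, B2, B4, L1, ERVK and ERVL. The summed TPM of its members was 302, 456, 187 and 430 in WT Spc replicates 1 to 4 and 0, 2.45, 3.42 and 0 in KO Spc. Every WT library was far above every KO library.

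Another locus, chr2:118712518-118721789 on the plus strand and antisense to the phospholipase gene Plcb2, held 9 members with 373, 81.1, 78.2 and 431 TPM in WT Spc and 1.42, 0, 1.27 and 4.65 in KO Spc. The next, chr7:121492314-121507725 on the minus strand in the noncoding gene 4933432K03Rik, also held 9 members, with 216, 109, 71.4 and 313 TPM in WT Spc and 0, 0, 1.24 and 0 in KO Spc. In both, replicates 1 and 4 were the highest WT libraries and replicates 2 and 3 were still above all KO libraries.

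The members were short and many were thinly covered. Their median length was 120 bases, with a range of 11 to 7587, and 248 were under 50 bases. The median copy had 42 reads over the 4 WT Spc libraries, and 349 had fewer than 20. WT Spc levels had a median of 15.4 TPM and reached 485. Over the libraries, 1472 members were above 0 in all 4 WT Spc libraries and 354 reached 10 TPM in each of them. A single library gave more than 50% of the summed WT Spc TPM for 583 members (31.0%), and 1491 were highest in replicate 1 or 4. In WT Spg 1289 had no read at all.

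At the edges of the rule, the lowest members in WT Spc were ORR1D1_dup17412, PB1D10_dup56058 and B1_Mus1_dup20808, each at 10.0 TPM, and the nearest copy below was ID_B1_dup50524 at 9.996 TPM. The members nearest the Spg limit, Charlie1a_dup1680, B1F_dup30743 and B4_dup48583, were at 0.499 TPM, and ORR1A4_dup4950 and ORR1A2_dup4151 missed it at 0.501 TPM. Levels ran on across both limits. A single library decided the size of the set: without Spg_WT replicate 2 the rule gave 3803 copies, which included 1839 of the 1882 (97.7%). Multiplying TPM by the TE share of all counts, which is lower in WT Spc, gave 627 copies, 559 of them members (29.7% of the members).

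Summed over the members, reads scaled to total counts came to 929, 476, 573 and 883 CPM in the WT Spc libraries (mean 715 ± 225, SD, n = 4). In KO Spc they came to 37.0, 25, 43.9 and 41.9 (mean 37.0 ± 8.47, n = 4). All KO Spc libraries were below all WT Spc libraries, and the ratio of the pooled values was 19.4, or 15.3 with replicates 2 and 3 alone. The KO Spg libraries gave 13.4, 16 and 13.6 (mean 14.3 ± 1.45, n = 3). WT Spg libraries gave 2.35, 25.2 and 2.51, with the high value in replicate 2.

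**Figure D2:**
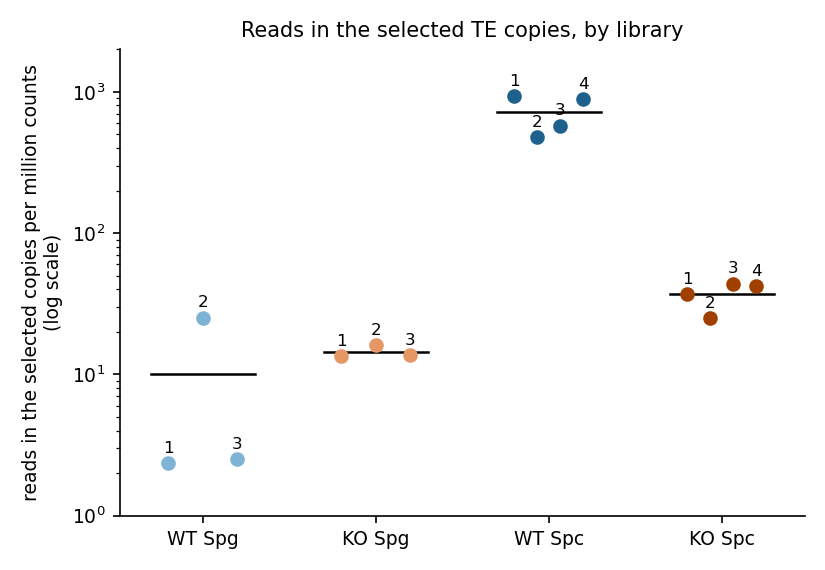
Summed reads in the 1882 members, in CPM on a log axis, for each of the 14 libraries, by group. Numbers are replicates and lines are group means. The WT Spc libraries run from 476 to 929 and the KO Spc libraries from 25 to 43.9.

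Because the members were chosen for a high level in the WT Spc libraries, a lower level in any other group is partly built in, and the KO to WT comparison on the copies is given without a test. In KO Spc 1072 members (57.0%) had no read and 1395 had a mean under 0.5 TPM. Only 33 reached a mean of 10 TPM. In TPM 10 members were above their WT mean, and on total counts 45 were. For 1356 members (72.1%) every KO Spc library was below every WT Spc library, where 5.88% of all 252692 copies with a mean of at least 0.5 TPM over all libraries had this order. For 0 members was every KO library above every WT library, against 11.5% of all those copies, and for 526 the libraries overlapped. On the log2(TPM + 0.1) scale the median difference of KO Spc to WT Spc was -6.83, with an interquartile range of -7.44 to -4.84, and -5.72 on TPM times the TE share of all counts.

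**Figure D3:**
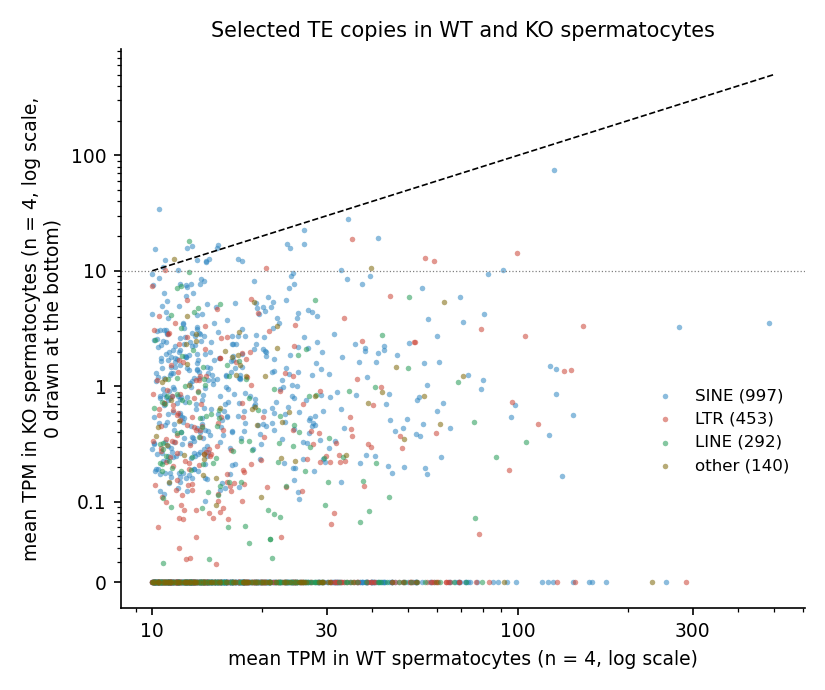
Mean TPM of each member in WT Spc (4 libraries) against KO Spc (4 libraries), on log axes with 0 drawn at the bottom, coloured by class. The dashed line marks equal levels and the dotted line 10 TPM in KO Spc. Of the members, 1072 sit at the bottom with no KO Spc read and 10 lie above the dashed line.

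Every class was lower in KO Spc, to unequal extents. The WT to KO ratio of summed reads, scaled to total counts, was 13.5 for SINEs, 21.9 for LINEs, 26.3 for LTR elements and 38.7 for DNA transposons. Among some of the larger families it was 11.3 for B1 (Alu), 14.5 for B2, 15.5 for B4, 19.6 for ERV1, 20.4 for MIR, 21.2 for L1, 28.2 for ERVK and 35.2 for ERVL-MaLR. Over all families with at least 5 members it ran from 5.3 for the 8 Y-chromosome repeats to 150 for the 7 hAT-Tip100 copies. All KO libraries were below all WT libraries for 89.8% of ERV1, 86.8% of ERVK, 78.7% of L1 and 78.2% of ERVL-MaLR members, and for 69.9% of B2, 68.3% of B1, 64.9% of B4 and 58.1% of ID members. Differences between families were not tested, and the same shares over all copies of each family were not computed. Read numbers differed too, with 14450 WT reads over 49 ERV1 members and 2088 over 62 ID members.

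By position the ratio was 28.7 for members antisense to a gene, 22.7 for those downstream of one, 17.0 for intergenic members, 16.1 for sense introns and 40.5 for the 29 in sense exons. The libraries did not overlap for 63.5% of the members in sense introns, and for 74.0% to 86.2% in the other positions. The same shares over all copies in each position were not computed. Among the 1495 members with at least 50 bases and at least 20 WT reads, 83.3% had no overlap and the ratio was 21.2.

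The best expressed member was B1_Mus1_dup10934, an intergenic B1 at chr2:151158239-151158354 on the plus strand. It had 624, 562, 418 and 337 TPM in WT Spc (485 ± 131, SD, n = 4) and 4.48, 4.34, 1.50 and 3.69 in KO Spc, from 1220 and 16 reads. WT Spc was 70.4-fold higher on reads scaled to total counts and the libraries did not overlap. Folds of single copies are given on this scale, since TEs took a larger share of all counts in KO Spc. On the TPM scale this fold was 139, and folds of the 10 highest copies were 1.97 to 2.37 times larger.

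RLTR24_dup816, an ERV1 LTR piece of 49 bases in an intron of the noncoding gene 1700025F24Rik (chr10:119415606-119415654, plus strand), had 311, 385, 101 and 353 TPM in WT Spc. It had no read in KO Spc, so its WT level was at least 87.7-fold higher on total counts, taking 3 reads over the 4 KO libraries as the floor. The host gene itself averaged 31.1 ± 9.32 CPM in WT Spc and 0.132 ± 0.168 in KO Spc. Copy and gene were both near absent from the mutant cells.

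B4_dup56632 was only 16 bases long and lay 9680 bases downstream of Spag6l, a gene of the sperm flagellum's central pair (chr16:16743320-16743335, minus strand). Its levels were 477, 254, 163 and 210 TPM in WT Spc and 13.0, 0, 0 and 0 in KO Spc, from 92 and 2 reads. In a piece this short each read is worth many TPM, so its rank rests on few reads.

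PB1D10_dup61894 and ID_dup7639 were adjacent pieces on chromosome 18 (chr18:22172819-22172941 and chr18:22172737-22172818, plus strand) with no gene around them. The first had 400, 25.5, 114 and 478 TPM in WT Spc, the second 304, 15.8, 53.6 and 322, and neither had a KO Spc read. On total counts WT Spc was at least 185-fold and at least 82.5-fold higher. Replicates 1 and 4 were far above replicate 2 in both, so the spread among WT libraries was wide while all lay above KO Spc.

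IMPB_01_dup6416, a satellite repeat antisense to Prdm16, which codes for a zinc finger transcription factor (chr4:154623258-154623343, plus strand), had 369, 27.9, 113 and 419 TPM in WT Spc and none in KO Spc. MTEa_dup15164, a MaLR LTR piece of 202 bases antisense to Aldh5a1 (chr13:24931222-24931423, plus strand), had 214, 109, 38.7 and 210 TPM from 563 reads and none in KO Spc. WT Spc was at least 119-fold and 173-fold higher for these copies on total counts, while the genes on the other strand were not lower in KO Spc. Prdm16 averaged 2.32 CPM in WT Spc and 13.6 in KO Spc, and Aldh5a1, an enzyme of GABA breakdown, 1.06 and 8.73, a log2 difference of 3.07 ± 0.58 (edgeR adjusted p = 0.0011).

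The others among the 10 highest were MIRc_dup8708 in an intron of the ghrelin gene Ghrl, with 254, 34.2, 52.5 and 296 TPM, and B4_dup26649 in an intron of 4931406B18Rik, with 214, 75.4, 5.60 and 328. Neither had a KO Spc read. RMER10B_dup1135, an intergenic ERVL piece on chromosome 7, had 268, 46.9, 22.5 and 265 TPM in WT Spc and 1.55, 0, 3.89 and 7.99 in KO Spc, with WT Spc 19.2-fold higher on total counts. In 7 of the 10 copies the KO Spc libraries held no read at all.

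**Figure D4:**
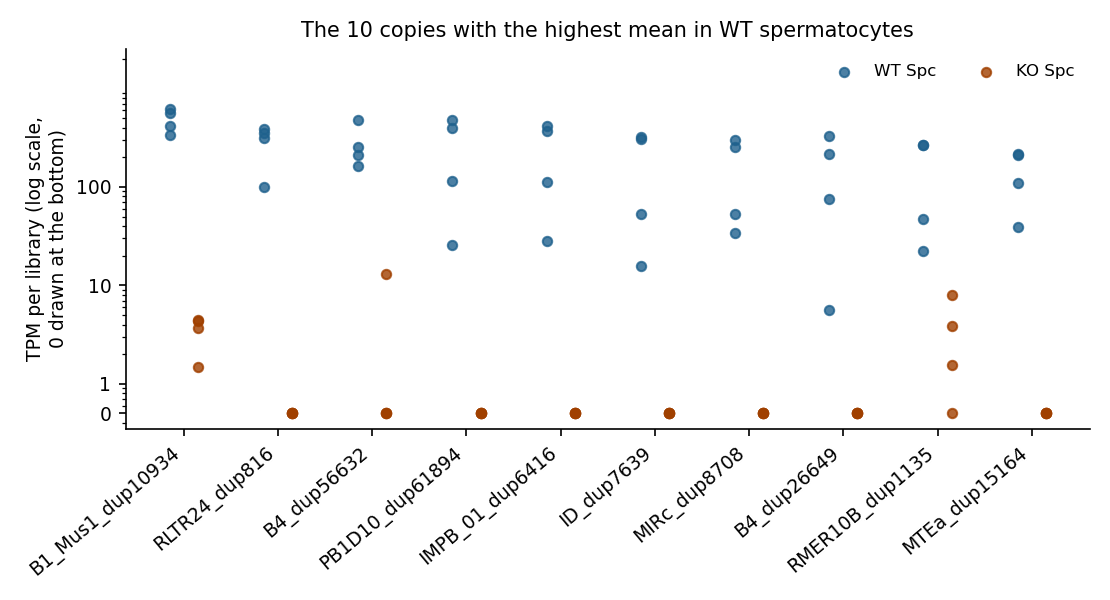
TPM of the 10 highest members in each Spc library, on a log axis with 0 drawn at the bottom. WT Spc points lie above all KO Spc points for every copy, and replicates 1 and 4 are the highest for 7 of the 10.

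The highest copies of the other families with at least 5 members had lower levels and the same order, except CYRA11_Mm_dup80, which was at 0 in WT Spc replicate 1 as in all KO Spc libraries. The ERVK copy RLTRETN_Mm_dup594 (chr8:107217505-107217827, plus strand, intergenic) had 184, 55.5, 40.8 and 174 TPM in WT Spc and 0.966, 0.312, 0.269 and 0.331 in KO Spc, with WT Spc 110-fold higher on total counts from 716 and 6 reads. The DNA transposon Tigger1_dup516, 794 bases in an intron of Ccdc7a, had 90.1, 16.5, 20.1 and 118 TPM in WT Spc, and 1 KO library held all of its 14 KO reads. L1MD2_dup3127 averaged 105 TPM in WT Spc and 0.331 in KO Spc, and B2_Mm2_dup23988 127 and 1.42. FordPrefect_dup82, in an exon of the noncoding gene 4930558F17Rik, averaged 91.5 TPM in WT Spc and had no KO read. Means of the remaining leaders of these families ran from 22.9 TPM for MER63A_dup488 to 72.0 TPM for L2c_dup10571 in WT Spc, and from 0 to 5.35 TPM in KO Spc.

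A small group of members was transcribed in KO Spc as well. The 33 with a mean of at least 10 TPM there had 1500 WT reads and 1435 KO reads, 17 of them lay in sense introns, and 23 were at 0.5 TPM or more in KO Spg. ID_B1_dup22695, a piece of 48 bases, averaged 10.4 TPM in WT Spc and 34.2 in KO Spc, from 12 and 66 reads. Lx10_dup8585, an intergenic L1 piece of 435 bases, had 12.8, 8.92, 18.6 and 9.93 TPM in WT Spc and 16, 14.8, 20.5 and 20.4 in KO Spc. It stood at 8.15, 3.07 and 7.10 TPM in KO Spg. ID4_dup8294, antisense to Stambp, was seen in 1 Spc library of each genotype, replicate 3, at 93.3 TPM in WT Spc and 68.3 in KO Spc with 0 in the other Spc libraries. The highest KO Spc mean, 75.2 TPM, belonged to B3_dup64983, a piece of 18 bases with 52 KO reads. These copies were chosen after their values were seen. Of the 33, 10 were above their WT mean in TPM and 26 on total counts, where their pooled WT to KO ratio was 0.966. B3_dup64983 and ID4_dup8294 were among those that turned round, with WT to KO ratios of 0.798 and 0.786 on total counts.

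In KO Spg 1422 members had no read, 314 had a mean of at least 0.5 TPM and 18 a mean of at least 10 TPM. WT Spg was kept under 0.5 TPM by the rule, so the groups are not compared. Turning the rule round, 270 copies reached 10 TPM in KO Spc and stayed under 0.5 TPM in KO Spg. Only 10 of them were also members, which is 3.70% of that set and 0.531% of the members. SINEs made 64.4% of the KO set, close to their 63.8% of all copies at 0.5 TPM or more in WT Spc, and its median length was 40 bases.

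Whether members rose with meiosis in the mutant was tested on libraries the rule did not use, KO Spc against KO Spg. Every member passed the filter on low values, a mean of 0.5 TPM over all libraries, through its WT Spc level alone, and 961 of the 1882 had no read in either KO group and so could not be called. With limma on log2(TPM + 0.1) none passed an adjusted p of 0.01, among 252692 copies of which 0% were called. At an unadjusted p under 0.05 there were 63 members (3.35%, against 9.70% of all copies), and the smallest adjusted p of a member was 0.259. In simulated data limma recovered 0 of 100 copies changed 4-fold and 0 of 100 changed 16-fold, so nothing about the members is read from this count. The deposited values were whole multiples of 1 read (100% within 0.01), so reads were recovered and tested with edgeR as an alternative added after the data were seen. It recovered 3 and 72 of 100 at these sizes and called 4 members higher in KO Spc. In both simulations the changed copies had more signal in the KO libraries than most members, 1472 of which had at most 3 KO Spc reads. The recovered numbers therefore do not hold for the members. Of all copies 1.39% were called, and with so many members unable to pass, nothing is read from their count against this share.

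RLTR41B_dup70 (chr15:4987681-4987872, minus strand), an LTR 889 bases downstream of the complement gene C7, had 135, 75.1, 62.9 and 125 TPM in WT Spc and 15.2, 24.1, 1.81 and 15.6 in KO Spc. In KO Spg it was at 0, 0.870 and 0, with an edgeR log2 difference of 5.12 (Benjamini-Hochberg adjusted p = 0.00081). KO Spc lay between KO Spg and WT Spc, with no overlap of the 3 groups.

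RLTR4_MM-int_dup405 was the longest member, an internal retroviral sequence of 7587 bases (chr16:93698154-93705740, minus strand). It had 27.2, 28.1, 11.1 and 30.5 TPM in WT Spc, from 3729 reads, and 1.12, 0.504, 0.618 and 2.68 in KO Spc. KO Spg held 0.0584, 0.0991 and 0.458 TPM, for an edgeR log2 difference of 2.82 (Benjamini-Hochberg adjusted p = 0.0049). Every KO Spc library lay above every KO Spg library, while limma gave this copy an adjusted p of 0.67. WT Spc was 9.55-fold above KO Spc on total counts, or 19.7-fold in TPM.

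L1Md_A_dup14986, a piece of a young L1 (chr15:70488026-70489021, plus strand), differed in that KO Spc, with 11.4, 4.35, 9.93 and 13.4 TPM, overlapped WT Spc, with 18.2, 8.35, 7.99 and 15.9. KO Spg had 0.742, 0.168 and 2.71 TPM, an edgeR log2 difference of 3.41. The WT to KO ratio in Spc was 1.29 in TPM and 0.606 on total counts. Reads of young L1 copies can be exchanged with their near-identical relatives. PB1D10_dup29264, downstream of Mak16, had 26.3, 19.7, 14.6 and 0 TPM in WT Spc and 12.2, 0, 12 and 43.3 in KO Spc, with none in KO Spg.

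Genes around the members were compared between KO Spc and WT Spc. Gene counts did not choose the members, but the WT Spc libraries are the ones that did, so this comparison is not independent of the rule. Among 366 tested genes with a member on their own strand, 308 were lower in KO Spc than in WT Spc (84.2%) and 12 higher (3.28%), at an edgeR adjusted p under 0.01. Over all 21919 genes tested, 30.7% were lower and 28.0% higher. The median log2 difference of these hosts was -5.55, or -5.49 with the 12 genes without a KO count set at their bound, and 0.11 over all genes. Genes that end up to 10000 bases upstream of a member gave a like picture, with 173 of 216 lower (80.1%), 15 higher and a median of -5.06.

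Genes on the opposite strand of a member were less often lower, a difference that was not tested. Of 318, 128 were lower (40.3%) and 65 higher (20.4%), with a median of -0.69. When libraries were scaled by their totals, the medians were 0.01 for these genes, -4.81 for same-strand hosts and -4.34 for upstream genes. In all, 419 of 661 hosts on either strand were lower and 76 higher. Scaling by library totals shifted the median of all genes to 0.79 and changed the background to 8074 higher and 4880 lower genes, with 370 hosts lower and 107 higher.

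**Figure D5:**
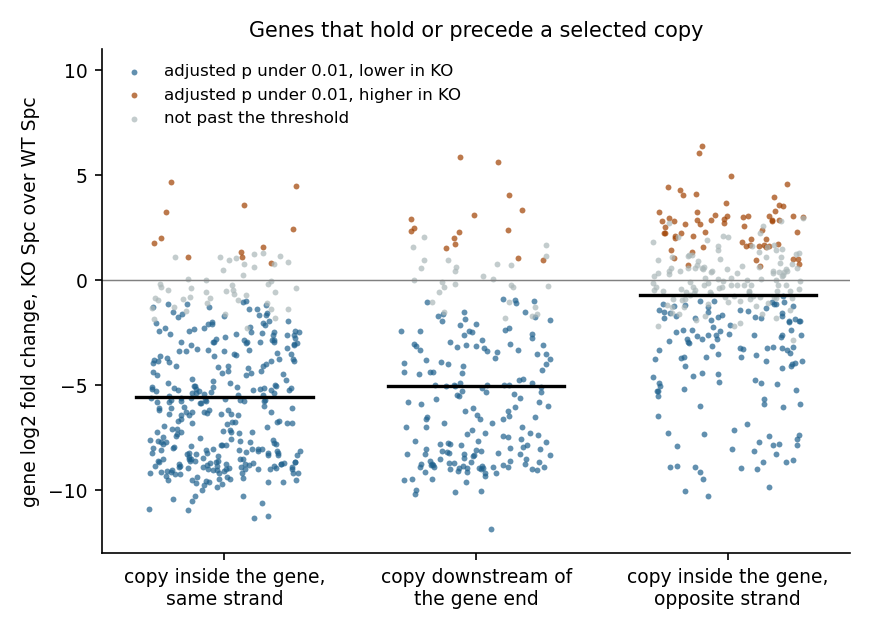
Log2 difference of KO Spc to WT Spc for genes on the strand of a member, genes ending upstream of one and genes on the opposite strand, with lines at the medians of -5.55, -5.06 and -0.69 and colours by edgeR call. Most same-strand and upstream genes lie far below 0, while opposite-strand genes spread on both sides.

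Of the 393 genes with a member on their strand, 265 were protein coding and 121 of long noncoding types. The largest falls included 4921524L21Rik, with 107 ± 41.4 CPM in WT Spc and 0.0553 ± 0.0980 in KO Spc, a log2 difference of -10.89 ± 0.95 (edgeR adjusted p = 1.2e-05). The noncoding AC132251.1 and 4930434F21Rik and the coding 1700001K19Rik had no KO Spc count, and were at least 296-fold, 230-fold and 328-fold higher in WT Spc. Gm2916 averaged 19.4 CPM in WT Spc and 0.00916 in KO Spc. Ldhc, the lactate dehydrogenase of sperm, held 2 members and averaged 5275 CPM in WT Spc and 16 in KO Spc. Spag6l, with 2 members downstream, averaged 812 and 1.41 CPM.

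Hosts of the other named copies differed. Ccdc7a, with 4 members, had a log2 difference of -7.99 ± 1.01 (edgeR adjusted p = 0.00010) and Ghrl one of -8.05 ± 0.83 (edgeR adjusted p = 3.2e-05), and 4930558F17Rik, Lemd1 and AC116841.1 were lower as well by edgeR, at -10.26, -4.86 and -4.46. Tbc1d31, which ends upstream of L2c_dup10571, averaged 87.7 CPM in WT Spc and 98.7 in KO Spc (log2 0.21, edgeR adjusted p = 0.44), although the copy had no KO Spc read. Gm11517, upstream of YREP_Mm_dup2237, Tti2 and AC124108.1 also missed the threshold, at 0.06, -0.40 and -1.60, and Mak16 was higher, at 1.06 (edgeR adjusted p = 0.00055). Of the stage markers, 8 of 9 pachytene and 10 of 10 spermatid genes were lower in KO Spc by edgeR, at medians of -7.57 and -7.95, while 7 of 9 spermatogonial genes were higher. Of 8 early meiotic genes 1 was lower and 3 were higher, at a median of 0.19. The part that stage plays in the members' levels was not tested.

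Hosts that rose in KO Spc were mostly on the opposite strand, as were 4 of the 5 largest rises. Ror1, a receptor tyrosine kinase-like gene, Cyp2j9, a cytochrome P450, 2600014E21Rik and the RNA-binding protein gene Rbms3 rose by log2 6.42 ± 1.11, 6.08 ± 1.15, 4.96 ± 0.91 and 4.56 ± 0.76 (edgeR). The other was the X-linked monoamine oxidase gene Maoa, whose sense intron holds the 12-base ID piece, at 4.90 ± 4.82 CPM in WT Spc and 125 ± 42.9 in KO Spc. Peritubular and Leydig markers were also higher in these KO libraries (values above), and their part in these rises was not tested.

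In the mutant alone, 16 of 541 tested hosts were higher in KO Spc than in KO Spg and 0 lower, by edgeR at an adjusted p under 0.01. The background was 2.15% higher and 0.0137% lower over 21876 genes. At an unadjusted p under 0.05 there were 183 higher (33.8%) and 58 lower (10.7%), against 19.9% and 11.2% of all genes. DESeq2 called 124 of 573 hosts higher (21.6%) and 11 lower (1.92%), against 10.5% and 2.00% of 23472 genes. By edgeR, 11 of 264 same-strand hosts (4.17%), 6 of 292 opposite-strand hosts (2.05%) and 3 of 132 upstream genes were higher. The edgeR count of 16 fell to 0 without Spc_KO replicate 4, without any one Spg_KO replicate, or with replicates 1 and 4 summed, where 0 of all genes were called as well. It was 5 without Spc_KO replicate 1 (0.962%, against 1.11% of all genes), 44 without Spc_KO replicate 2 (8.22% against 3.49%) and 31 without replicate 3 (6.01% against 4.47%).

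Several same-strand hosts among the 16, the sperm gene Ldhc among them, rose in the mutant and stayed below WT Spc. Ldhc was at 1.87 ± 0.176 CPM in KO Spg and 16 ± 7.49 in KO Spc, log2 3.09 ± 0.43 (edgeR adjusted p = 0.0063), against 5275 in WT Spc. Mroh8 went from 1.48 to 6.67 CPM, with 361 in WT Spc, and Cd55b, a complement regulator paralog, from 0.111 to 0.863, with 180 in WT Spc. Pbx4, a homeobox gene, and Lca5l rose by log2 1.49 ± 0.24 and 2.05 ± 0.31, to 13.5 and 32.9 CPM, with 320 and 477 in WT Spc. Gm5134 and the noncoding 4930598N05Rik rose by 2.24 and 3.48 (edgeR).

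Several of the others are known from somatic cells. C7, with 3 members in the gene on its strand and RLTR41B_dup70 downstream, was at 0.0116 CPM in KO Spg, 11.5 ± 6.65 in KO Spc and 40.9 ± 22.4 in WT Spc. Pdgfd, a growth factor, Egflam, an extracellular matrix gene, Boc, a Hedgehog co-receptor, and Cx3cr1, a chemokine receptor of macrophages, rose by log2 6.47, 6.37, 5.31 and 5.74 (edgeR). Pld4 and Srgn, a proteoglycan of blood cells, rose by 3.67 and 2.82 (edgeR). Egflam was also well expressed in WT Spc, at 141 CPM against 86.8 in KO Spc. Slc39a8, a zinc transporter on the opposite strand of its member, rose by 2.82 (edgeR) to 1.81 CPM in KO Spc and stood at 72.0 in WT Spc. Maoa, on the strand of its member, rose from 30.5 CPM in KO Spg to 125 in KO Spc, log2 2.03 ± 0.28 (edgeR adjusted p = 0.0062), and was lower in WT Spc, at 4.90. Macrophage markers summed to 17.8 to 99.6 CPM in KO Spc and 0.773 to 1.27 in KO Spg, and peritubular markers to 173 to 2095 and 31.4 to 37.4. Their part in these rises was not tested.

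Factors known to act on meiotic transcription and on piRNAs were read in the same libraries. Of 17 tested transcription factors, 8 were lower and 4 higher in KO Spc than in WT Spc by edgeR, where 30.7% of all genes were lower and 28.0% higher. Rfx2, a ciliogenic factor of late meiosis and an X-box binder, averaged 774 CPM in WT Spc and 35.8 in KO Spc, a log2 difference of -4.40 ± 0.31. Rfx3, of the same family, averaged 13.8 CPM in WT Spc and 24.8 in KO Spc, a log2 difference of 0.88 ± 0.36 (edgeR adjusted p = 0.050). Ovol2, Tcfl5 and Crem were lower by edgeR as well, at log2 -6.45, -3.59 and -3.50, while Stra8, which starts meiosis, and Taf7l were higher at 3.05 and 3.91. Mybl1, a regulator of pachytene transcription, was at -0.59 (edgeR adjusted p = 0.12).

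Among 20 piRNA factors, 13 were lower and 1 higher in KO Spc, beside the same shares of all genes. Piwil1, the Piwi protein that binds pachytene piRNAs, was lower by edgeR at log2 -7.57 ± 0.35, Tdrd6 at -9.15 and Mael at -3.31. The higher one was Tex15, at 2.54, which acts in fetal TE silencing. Between KO Spc and KO Spg only Kctd19 among the transcription factors was called higher, at log2 2.97 (edgeR adjusted p = 0.0060), and the smallest edgeR adjusted p of a piRNA factor was 0.0973.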

How the data were processed

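Poly(A) RNA was sequenced from 14 libraries of sorted Spg and Spc. Per the labels and the study's methods, reads were trimmed with cutadapt 4.0 and aligned with STAR 2.7.3a to GRCm38 with GENCODE M25, keeping many alignments per read in random order. The authors counted genes and TE subfamilies with TEtranscripts and single copies with TElocal, and deposited raw counts and, per copy, TPM over TE copies alone. Reads shared by near-identical copies were distributed by the counter, so a single copy's level is an estimate. The deposited fold changes and p-values of the authors' own DESeq2 1.44.0 comparisons were not used. One Spg library of each genotype that the authors set aside for RNA quality was not analysed here.

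Copies were placed against GENCODE M21 on GRCm38. A copy within a gene on its strand was called exonic or intronic, otherwise antisense, downstream of a same-strand gene end by up to 10000 bases, or intergenic. Host genes were tested on the deposited counts with edgeR 4.0.16 (quasi-likelihood, TMM, R 4.3.3, Benjamini-Hochberg adjusted p under 0.01) in a fit over all genes. Copies with a mean of at least 0.5 TPM over the 14 libraries were tested with limma 3.58.1 on log2(TPM + 0.1). Fits were tested on simulated data. DESeq2 1.42.0, other scalings, filters and left-out replicates were the alternatives.

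The members and gene lists were chosen with earlier results of these data known. The copies named are the 10 highest in WT Spc, the 5 lowest ratios of KO to WT Spc, the highest of each family with at least 5 members, those called in KO Spc against KO Spg, and the 3 largest loci. The hosts named are the 5 largest falls and the 5 largest rises, the hosts called between KO stages and the hosts of named copies. Copies with the highest KO Spc level, the edgeR test on recovered reads and the X-box letters were added after the values were seen. The labels number the replicates and do not say whether they are separate sorts or animals, so p-values measure the spread between these libraries. Same-numbered libraries did not deviate together (correlations of 0.0632, 0.227, -0.0411 and 0.119 between KO and WT Spc), so no replicate block was used. Values after ± are SDs between libraries or standard errors of the fits, and floors cover counting error only.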

Additional observations from a re-analysis of the deposited data

Results flagged for a closer look

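Among 193 groups of 4 Spc libraries (named copies, named hosts, genes of the factor lists and summed marker lists), 14 had 1 library that stood far from the other 3, and chance gives about 1 in 20. ID4_dup8294 stood out in both genotypes by the same replicate, with 93.3 TPM in WT Spc replicate 3 and 68.3 TPM in KO Spc replicate 3. In WT Spc the library standing apart had 12.1 CPM of the host gene Maoa, 46.2 CPM of Sohlh2, 13.5 CPM of Zbtb16, 1599 CPM of Tdrd1, 57 CPM of Henmt1 and 135 CPM of Tex15. The summed early meiotic, Sertoli and piRNA factor lists also had a WT Spc library apart, at 2663, 98.5 and 9686 CPM. In KO Spc the library apart had 3.54 CPM of the host gene Mroh8, 49.7 CPM of Zbtb16 and 173 CPM of the summed peritubular markers. The members' own summed reads had no library apart by this measure in either Spc group.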

How the results depend on the processing

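The number of copies was 5242 with a limit of 5 TPM in WT Spc, 616 with 20 TPM and 627 on TPM times the TE share of all counts, and ran from 1698 to 3803 when 1 replicate was left out, with the highest value without Spg_WT replicate 2. The median log2 difference of KO Spc to WT Spc was -4.70 with a pseudocount of 0.5, -10.1 with 0.01, -5.72 on the TE share scale, -7.05 over copies outside L1 and ERVK, -6.64 with replicates 1 and 4 averaged and -6.13 with replicates 2 and 3 alone (added after the data were seen). It ran from -6.98 to -6.55 with 1 replicate left out. It was negative in every setting run.

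In KO Spc against KO Spg 3 members were called higher without limma's mean-variance trend (0.159%, against 0.169% of all copies) and 4 with edgeR on recovered reads (0.213% against 1.39%). All other settings, the replicate block and each left-out replicate included (0 to 0), called 0 members and 0 of all copies. Against WT Spc, 419 hosts were lower, 128 on the opposite strand alone and 173 for upstream genes; the count ran from 398 to 427 with 1 replicate left out (59.9% to 63.4% of hosts, against 26.6% to 30.3% of all genes) and was 331 with replicates 2 and 3 alone (49.8% against 16.9%). For hosts in KO Spc against KO Spg the 16 became 6 on the opposite strand, 3 for upstream genes, 102 at an adjusted p under 0.05 (18.9% of hosts against 9.96% of all genes), 124 with DESeq2 (21.6% against 10.5%), 28 without the filter on low counts (4.12% against 2.21%) and 0 with replicates 1 and 4 summed. With 1 replicate left out this count ran from 0 to 44, while 0 to 954 of all genes were called (0% to 4.47%). The cause was not tested.

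The replicate block, numbered as in the sample titles, gave 408 lower hosts against WT Spc and 26 higher hosts between KO stages (4.81% against 3.26% of all genes). Correlations of same-numbered KO Spc and KO Spg libraries were 0.436, 0.0273 and 0.277. The third Spg libraries carry the number 4 in the column names, and by those numbers the last correlation was -0.481 and the replicate block gave 29 higher hosts (5.36% against 4.09%, added after the data were seen). Under either numbering the libraries share only a number. Depth also limits the single copies: 349 of the members had fewer than 20 reads over the WT Spc libraries.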
